A study of Mus musculus with 4 samples.

Results

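Erythroid membrane, iron and identity genes were followed in myeloid and multipotent progenitors that lack the transcription factor Bcl11a. The set holds 32 genes, listed by symbol from knowledge of the red cell and with earlier results of these data known. It spans nuclear regulators of the erythroid program, membrane transporters and blood group carriers, the membrane skeleton, carbonic anhydrases, iron carriers, and proteins of the cytoplasm and organelles. Globins, heme enzymes and the erythropoietin receptor were left out. A gene was measured by the probe sets that carry its symbol alone, and this held for 31 of the 32 genes among 19938 such genes on the array. Each of the 31 had 1 probe set. Ahsp, the chaperone of alpha globin, had no probe set of that symbol and was not analysed here.

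RNA came from granulocyte-macrophage progenitors (GMPs) and from multipotent progenitors (MPPs), the LSK cells that lack CD150, both taken by flow cytometry from chimeric BM. The chimeras were B6.SJL hosts that received 1200 rad and then WT or Bcl11a-/- fetal liver cells, and donor-derived cells were sorted 4 weeks later. The 4 groups were Bcl11a-/- GMPs, WT GMPs, Bcl11a-/- MPPs and WT MPPs, and each was 1 array of RNA pooled by donor genotype. How many mice went into each pool is not stated, the deletion takes the first exon of Bcl11a in the Bcl11a-/- donor cells, and both populations of a genotype came from the same BM. Because every group was a single array, differences within a population or a genotype could not be set against replicate spread and carry no SD or p-value. All levels below are log2 signals after RMA, differences are Bcl11a-/- minus WT on that log2 scale, and a fold is 2 raised to the difference.

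Red cells arise from progenitors in which Gata1, Tal1 and their partners switch on a shared set of genes. Carbonic anhydrases, transferrin receptors and early membrane proteins come up first, and band 3, ankyrin, spectrin and the blood group proteins follow as the membrane skeleton is built. GMPs lie on the path to granulocytes and macrophages, whereas MPPs lie upstream of both that path and the erythroid one.

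The targeted gene had a log2 signal of 7.77 in Bcl11a-/- GMPs and 8.60 in WT GMPs, and of 8.64 in Bcl11a-/- MPPs and 9.89 in WT MPPs. The table used here does not say where the probes lie relative to the deleted exon, so a partial signal in Bcl11a-/- cells checks the labels only in part. The population labels went with their markers: all 12 genes of a GMP list, among them Elane, Prtn3 and Mpo, were lower in WT MPPs than in WT GMPs, and all 11 measured genes of an MPP list, among them Flt3, Meis1 and Hlf, were higher. The same 12 and 11 genes had these directions in Bcl11a-/- cells. Of all genes, 57.0% were higher in MPPs than in GMPs in WT cells and 59.4% in Bcl11a-/- cells. Some of the marker differences were small, such as -0.29 for Mpo in WT cells. Both lists were chosen with earlier results of these data known, so they are no independent check of the labels.

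The upstream sequences of some members with large differences in GMPs are shown first, because Gata1 and its relatives bind GATA words near the start of many red cell genes. RefSeq windows on GRCm38.p6 were at hand for 21 of the 31 genes, and the 250 bases before the start were read 5′ to 3′ on the strand of the gene. Car1, Atp1b2 and Cldn13, which had some of the largest differences in GMPs, had no window. Of the members with a window, the 4 with the largest difference between Bcl11a-/- and WT GMPs are printed. Capitals mark a GATA word, which was any of AGATAA or TGATAA or AGATAG or TGATAG on either strand (on the other strand TTATCT or TTATCA or CTATCT or CTATCA).
Rhag, chr17:40810899-40811148, plus strand: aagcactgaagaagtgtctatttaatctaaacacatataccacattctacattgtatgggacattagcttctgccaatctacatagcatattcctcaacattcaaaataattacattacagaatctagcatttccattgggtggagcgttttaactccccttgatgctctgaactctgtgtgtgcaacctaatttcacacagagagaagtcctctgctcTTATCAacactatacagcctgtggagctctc
Aqp1, chr6:55336049-55336298, plus strand: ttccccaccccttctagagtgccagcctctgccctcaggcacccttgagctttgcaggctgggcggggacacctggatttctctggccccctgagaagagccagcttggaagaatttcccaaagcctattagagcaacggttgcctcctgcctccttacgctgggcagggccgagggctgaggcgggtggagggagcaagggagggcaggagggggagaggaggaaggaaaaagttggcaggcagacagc
Ermap, chr4:119189996-119190245, minus strand: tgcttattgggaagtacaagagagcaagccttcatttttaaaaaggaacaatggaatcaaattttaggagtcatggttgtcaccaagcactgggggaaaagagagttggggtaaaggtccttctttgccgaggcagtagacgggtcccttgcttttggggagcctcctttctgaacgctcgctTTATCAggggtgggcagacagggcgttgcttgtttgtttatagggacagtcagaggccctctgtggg
Gfi1b, chr2:28621983-28622232, minus strand: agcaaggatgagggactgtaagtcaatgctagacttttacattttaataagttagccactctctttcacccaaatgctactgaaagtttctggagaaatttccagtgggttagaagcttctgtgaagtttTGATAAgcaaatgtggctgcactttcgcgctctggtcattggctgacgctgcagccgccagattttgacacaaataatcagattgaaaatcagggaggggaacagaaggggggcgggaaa
The word began 31 bases before the start in Rhag, 67 bases before it in Ermap and 120 bases before it in Gfi1b, and Aqp1 had none in its window. Trim10, Add2 and Tal1, with smaller GMP differences of 0.41, 0.43 and 0.45, had a word too. The other genes with none were Tspo2 (1.26), Gata1 (1.03), Zfpm1 (0.97), Bpgm (0.33), Tfrc (0.33), Sptb (0.29) and Cd36 (0.26). Over the 26 windows of the 21 genes, 13 held a GATA word (50.0%), against 26.5% of all 32851 windows of the same length. A word of the CACCC kind, CCNCNCCC on either strand, stood in 65.4% of the member windows and 45.9% of all windows, and the stricter form CCACACCC, which CCNCNCCC includes, in 3.85% and 3.2%. The GC-rich word CCGCCC stood in 50.0% of the member windows and 32.7% of all windows. Windows of one gene can overlap, the set was chosen with expression results known, and a word in a window is a match of letters and no measure of binding.

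In GMPs the set lay well toward higher signal in Bcl11a-/- cells. Because the set was chosen with earlier results of these data known, its counts beside those of all genes are a description and no test. More than 2-fold higher were 14 of the 31 genes, against 0.361% of all genes on the array, and 0 were more than 2-fold lower, against 0.281% of all genes. The 14 were Rhag, Car1, Atp1b2, Aqp1, Cldn13, Ermap, Gfi1b, Car2, Ank1, Tspo2, Rhd, Blvrb, Tfr2 and Gata1. The median difference was 0.97 on the log2 scale (range -0.27 to 2.14), against 0.01 over all genes, and 29 of the 31 genes were higher, against 51.9% of all genes. The count was 12 once the 4 arrays were quantile normalized anew, where Gata1 and Tfr2 came to 0.98. In MPPs the same genes showed little of this. There 0 were more than 2-fold higher, against 0.908% of all genes, and 1, Cldn13, was more than 2-fold lower, against 2.02% of all genes. The median was 0.30 (range -1.05 to 0.96), against 0.05 over all genes, and 24 of 31 genes were higher, against 55.6% of all genes. Quantile normalization of the 2 MPP arrays anew put Hemgn and Car2 past 2-fold and left Cldn13 just within it at -0.99. The shares of all genes given here are also those to set beside the counts of smaller groups and lists below. In sorted bulk cells, more cells with a transcript and more transcript per cell cannot be told apart.

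A weak test could be made over all 4 arrays, with genotype and population as additive terms in limma. It left 1 residual degree of freedom, and a gap between the genotype difference in GMPs and that in MPPs counted as error. Both arrays of a genotype came from the same BM, so this error holds no spread between pools, and the p-values for genotype do not measure it. For genotype, 0 of the 31 genes passed an adjusted p of 0.05 in either direction, with higher and lower calls for 0% of all genes, and the smallest adjusted p among the members was 0.57. At an unadjusted p of 0.05 the members gave 15 higher and 0 lower, and all 19938 genes gave 688 higher and 610 lower. For MPPs minus GMPs with genotype as the block, 1 of the 31 was higher, against 0.948% of all genes, and 1 was lower, against 2.81%. These were Car2, with a log2 difference of 1.27 ± 0.17 (SE, adjusted p = 0.0327), and Slc40a1, with -1.46 ± 0.17 (SE, adjusted p = 0.0305).

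**Figure D1:**
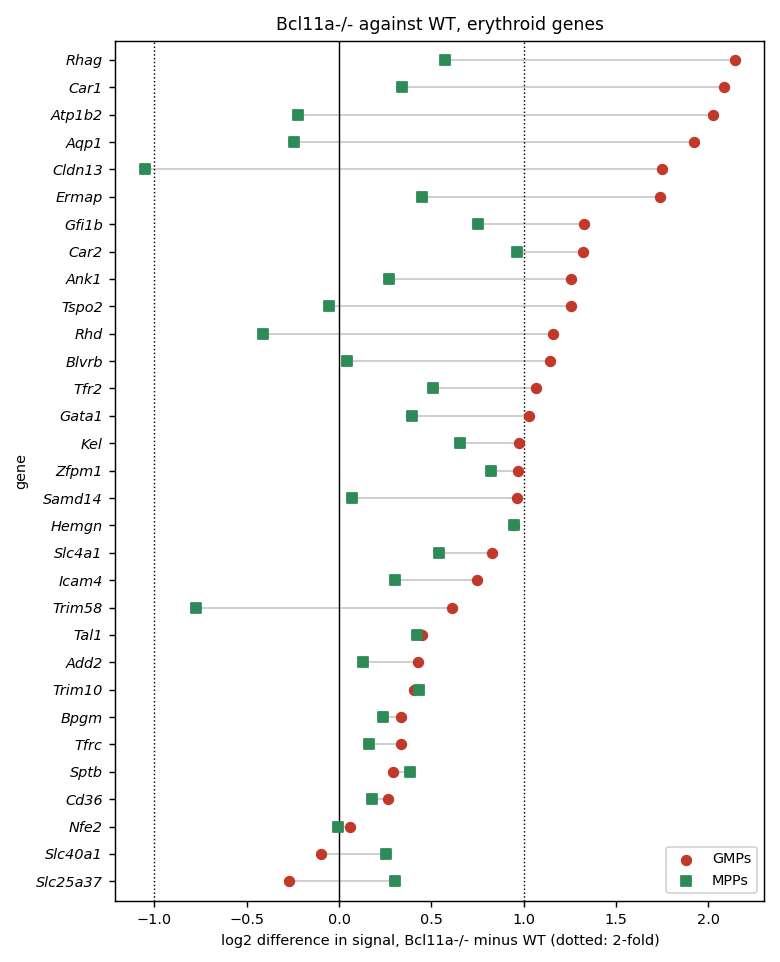
Log2 difference in signal, Bcl11a-/- minus WT, of each erythroid gene (rows, in order of the GMP difference) in GMPs (red circles) and MPPs (green squares), 1 array per condition; dotted lines mark 2-fold. The GMP points reach 2.14 for Rhag, and 14 lie beyond the right dotted line, while no MPP point does and Cldn13 lies beyond the left one at -1.05.

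Of 10 membrane transporters and blood group carriers, 6 were more than 2-fold higher in Bcl11a-/- GMPs, and the median difference was 1.45 in GMPs and 0.24 in MPPs. Rhag, the Rh-associated glycoprotein through which ammonia crosses the membrane, had a signal of 7.36 in Bcl11a-/- GMPs and 5.21 in WT GMPs, and of 7.08 in Bcl11a-/- MPPs and 6.50 in WT MPPs. WT GMPs were the low array, and the 4.42-fold difference in GMPs was at rank 4 of 19938 genes, against 1.49-fold in MPPs. Rhd, the carrier of the Rh antigen that assembles with Rhag, had signals of 6.68 in Bcl11a-/- GMPs and 5.52 in WT GMPs, and of 6.42 in Bcl11a-/- MPPs and 6.84 in WT MPPs. The Rh pair thus ran together in GMPs, where Rhd was 2.23-fold higher, and apart in MPPs, where Rhd was 0.41 lower on the log2 scale in Bcl11a-/- cells.

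Atp1b2, a beta subunit of the sodium-potassium pump, stood at 8.76 in Bcl11a-/- GMPs and 6.74 in WT GMPs, and at 8.69 in Bcl11a-/- MPPs and 8.91 in WT MPPs. Only the WT GMP array was low, and the other 3 lay close together, with a 4.07-fold difference in GMPs. Aqp1, the red cell water channel, stood at 8.52 in Bcl11a-/- GMPs and 6.60 in WT GMPs, and at 7.50 in Bcl11a-/- MPPs and 7.75 in WT MPPs. The difference was 3.79-fold in GMPs, and Bcl11a-/- GMPs were also above both MPP arrays. Cldn13, a claudin found in blood-forming tissue of the mouse, stood at 7.52 in Bcl11a-/- GMPs and 5.77 in WT GMPs, and at 6.79 in Bcl11a-/- MPPs and 7.84 in WT MPPs. It was 3.37-fold higher in Bcl11a-/- GMPs and 2.07-fold lower in Bcl11a-/- MPPs, each against WT. Ermap, which carries the Scianna blood group, stood at 8.09 in Bcl11a-/- GMPs and 6.35 in WT GMPs, a 3.34-fold difference, and at 7.91 in Bcl11a-/- MPPs and 7.46 in WT MPPs.

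The other 4 genes of the group stayed within 2-fold in both populations. Kel, the Kell antigen and a metalloendopeptidase, was just under the threshold at 1.97-fold higher in GMPs, with 6.63 in Bcl11a-/- GMPs and 5.66 in WT GMPs, and was 1.58-fold higher in MPPs, with 6.64 in Bcl11a-/- MPPs and 5.99 in WT MPPs. Slc4a1, the anion exchanger band 3, had 7.58 in Bcl11a-/- GMPs and 6.75 in WT GMPs, and 7.58 in Bcl11a-/- MPPs and 7.04 in WT MPPs. Its differences were 0.83 in GMPs and 0.54 in MPPs. Icam4, the adhesion protein of the Landsteiner-Wiener group, had differences of 0.75 in GMPs and 0.30 in MPPs. Cd36, a fatty acid receptor also carried by platelets and macrophages, had signals between 3.17 and 4.24 and was the 1 member under 5 on every array. Of the 6 genes past 2-fold in GMPs, Rhag and Ermap were higher in Bcl11a-/- MPPs too, and Atp1b2, Aqp1, Cldn13 and Rhd were lower there.

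Of the 6 nuclear regulators, 5 were higher in Bcl11a-/- cells of both populations, against 31.4% of all genes. Their median difference was 0.96 in GMPs and 0.59 in MPPs, with 2 more than 2-fold higher in GMPs and 0 in MPPs. Gata1, the zinc finger factor at the head of the erythroid program, had a signal of 7.47 in Bcl11a-/- GMPs and 6.44 in WT GMPs, and of 7.19 in Bcl11a-/- MPPs and 6.79 in WT MPPs. Gfi1b, a repressor needed in red cells and megakaryocytes, had a signal of 8.67 in Bcl11a-/- GMPs and 7.34 in WT GMPs, and of 9.47 in Bcl11a-/- MPPs and 8.72 in WT MPPs. For both genes the Bcl11a-/- array was the higher one in each population, by 2.04-fold and 1.32-fold for Gata1 and by 2.51-fold and 1.69-fold for Gfi1b, in GMPs and then MPPs.

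Zfpm1, the Gata1 partner known as FOG1, had 7.50 in Bcl11a-/- GMPs and 6.53 in WT GMPs, and 8.19 in Bcl11a-/- MPPs and 7.36 in WT MPPs. Hemgn, a nuclear protein of blood progenitors, had 7.13 in Bcl11a-/- GMPs and 6.19 in WT GMPs, and 7.81 in Bcl11a-/- MPPs and 6.86 in WT MPPs. The 2 differences of Hemgn were 0.95 in GMPs and 0.95 in MPPs, and those of Zfpm1 were 0.97 and 0.83, so the gap between the populations was at most 0.15 for either gene. Tal1, the basic helix-loop-helix partner of Gata1, had 7.36 in Bcl11a-/- GMPs and 6.91 in WT GMPs, and 7.96 in Bcl11a-/- MPPs and 7.54 in WT MPPs. Its differences were 0.45 and 0.42. Nfe2, a leucine zipper factor that megakaryocytes also use, was level, with 9.51 in Bcl11a-/- GMPs and 9.45 in WT GMPs, and 9.32 in Bcl11a-/- MPPs and 9.33 in WT MPPs.

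Both carbonic anhydrases, the enzymes that hydrate carbon dioxide in the red cell, were more than 2-fold higher in Bcl11a-/- GMPs. Car1 had a signal of 12.46 in Bcl11a-/- GMPs and 10.38 in WT GMPs, a 4.24-fold difference, and of 12.54 in Bcl11a-/- MPPs and 12.20 in WT MPPs. Car2 had a signal of 9.61 in Bcl11a-/- GMPs and 8.28 in WT GMPs, a 2.50-fold difference, and of 10.69 in Bcl11a-/- MPPs and 9.73 in WT MPPs, a 1.95-fold difference. Car1 lay between 12.20 and 12.54 on every array but that of WT GMPs, above at least 99.7% of genes. Differences between signals this near the top of an array can be compressed. Car2 was higher in Bcl11a-/- cells of both populations and had the largest increase of the set in MPPs.

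**Figure D2:**
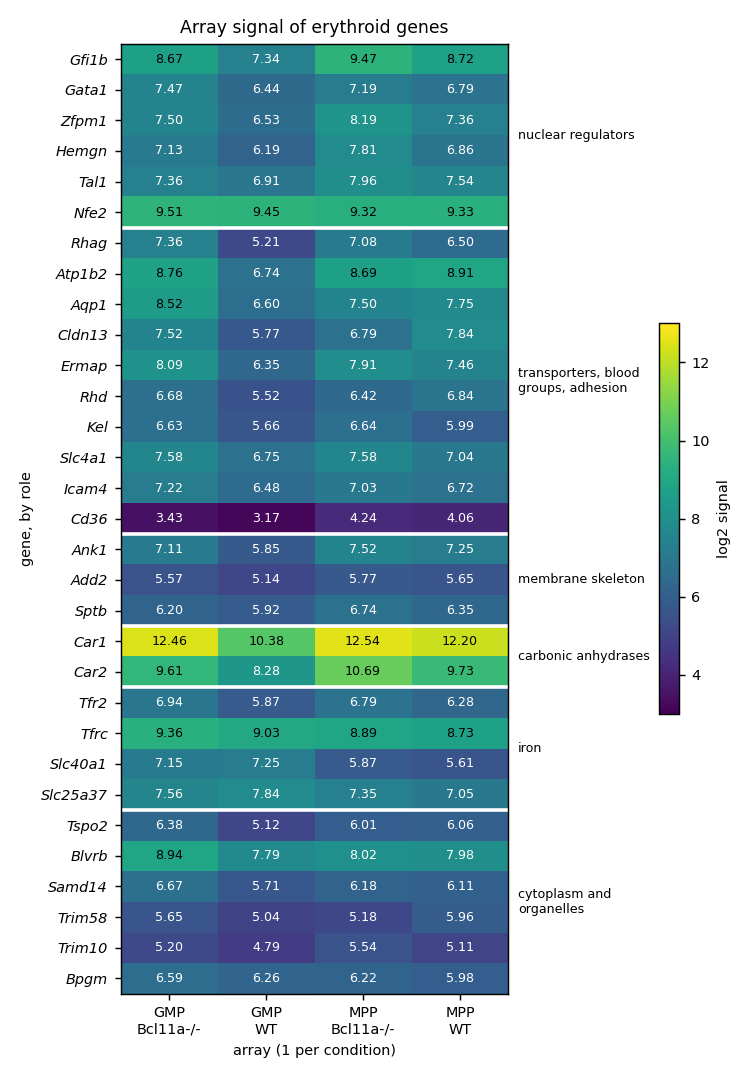
Log2 signal of each erythroid gene (rows, grouped by role) on the arrays of Bcl11a-/- GMPs, WT GMPs, Bcl11a-/- MPPs and WT MPPs (columns, 1 array each), with the value printed in each cell. Colors follow a common scale for all genes, and since probe sets differ in brightness they are to be compared only within a row. The WT GMP column is the lowest for 26 of the 31 genes, and Car1 there is 10.38 against 12.20 to 12.54 on the other arrays.

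The membrane skeleton was split. Ank1, the ankyrin that ties band 3 to spectrin, had 7.11 in Bcl11a-/- GMPs and 5.85 in WT GMPs, and 7.52 in Bcl11a-/- MPPs and 7.25 in WT MPPs. It was 2.39-fold higher in Bcl11a-/- GMPs and 1.21-fold higher in Bcl11a-/- MPPs. Sptb, beta spectrin, had 6.20 in Bcl11a-/- GMPs and 5.92 in WT GMPs, and 6.74 in Bcl11a-/- MPPs and 6.35 in WT MPPs, with a difference of 0.29 in GMPs and 0.39 in MPPs. Add2, a beta adducin that caps actin, had 5.57 in Bcl11a-/- GMPs and 5.14 in WT GMPs, and 5.77 in Bcl11a-/- MPPs and 5.65 in WT MPPs. It was under 6 on every array, with differences of 0.43 and 0.13. The median of the 3 genes was 0.43 in GMPs and 0.27 in MPPs.

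Iron carriers as a group were near level. Of 4 genes 1 was more than 2-fold higher in Bcl11a-/- GMPs, and the median difference was 0.12 in GMPs and 0.28 in MPPs. Tfr2, the transferrin receptor that senses iron alongside the erythropoietin receptor, had 6.94 in Bcl11a-/- GMPs and 5.87 in WT GMPs, a 2.10-fold difference, and 6.79 in Bcl11a-/- MPPs and 6.28 in WT MPPs. Tfrc, the receptor for uptake of transferrin in every dividing cell, had 9.36 in Bcl11a-/- GMPs and 9.03 in WT GMPs, and 8.89 in Bcl11a-/- MPPs and 8.73 in WT MPPs. The receptors therefore differed in size, with 1.07 for Tfr2 and 0.33 for Tfrc in GMPs. Slc25a37, the mitochondrial importer mitoferrin, had 7.56 in Bcl11a-/- GMPs and 7.84 in WT GMPs, and 7.35 in Bcl11a-/- MPPs and 7.05 in WT MPPs. Slc40a1, the exporter ferroportin that macrophages also carry, had 7.15 in Bcl11a-/- GMPs and 7.25 in WT GMPs, and 5.87 in Bcl11a-/- MPPs and 5.61 in WT MPPs. These were the 2 members with lower signal in Bcl11a-/- than in WT GMPs.

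Of the 6 measured cytoplasmic and organelle genes, 2 were more than 2-fold higher in Bcl11a-/- GMPs, and the median difference was 0.79 in GMPs and 0.06 in MPPs. Tspo2, a cholesterol-binding protein of maturing red cells, had 6.38 in Bcl11a-/- GMPs and 5.12 in WT GMPs, and 6.01 in Bcl11a-/- MPPs and 6.06 in WT MPPs. Blvrb, the NADPH-dependent flavin and biliverdin reductase, had 8.94 in Bcl11a-/- GMPs and 7.79 in WT GMPs, and 8.02 in Bcl11a-/- MPPs and 7.98 in WT MPPs. For both, the MPP arrays were level and the GMP arrays stood 2.39-fold and 2.21-fold apart. Trim58, a ubiquitin ligase that acts late, when the nucleus is expelled, had 5.65 in Bcl11a-/- GMPs and 5.04 in WT GMPs, and 5.18 in Bcl11a-/- MPPs and 5.96 in WT MPPs. It was under 6 on every array, with differences of 0.61 in GMPs and -0.78 in MPPs. Samd14, which aids Kit signaling in mouse erythroid progenitors, had 6.67 in Bcl11a-/- GMPs and 5.71 in WT GMPs, and 6.18 in Bcl11a-/- MPPs and 6.11 in WT MPPs. It was 1.95-fold higher in Bcl11a-/- GMPs and 1.05-fold higher in Bcl11a-/- MPPs. Trim10, another ubiquitin ligase of erythroid cells, and Bpgm, which makes the bisphosphoglycerate that loosens oxygen from hemoglobin, had differences of 0.41 and 0.33 in GMPs and of 0.43 and 0.24 in MPPs.

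Early and late genes of maturation were set apart by general knowledge of their order. All 17 early genes were higher in Bcl11a-/- GMPs, against 51.9% of all genes. More than 2-fold higher were 10 of them, against 0.361% of all genes, and the median was 1.07 (range 0.06 to 2.14). Of the 14 measured late genes, 12 were higher and 4, Rhd, Ank1, Ermap and Tspo2, were more than 2-fold higher, with a median of 0.79 (range -0.27 to 1.74). In MPPs the medians were 0.18 for the early genes, or 0.37 for the 10 of them that mark early steps most plainly, and 0.30 for the late genes. The ranges of the 2 lists overlapped in both populations, and genes of late steps such as Trim10, Sptb, Slc25a37 and Bpgm were among those nearest to no difference in GMPs. Some early genes were near it as well, with 0.06 for Nfe2, 0.26 for Cd36 and 0.33 for Tfrc.

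The GMP difference was larger than the MPP difference for 26 of the 31 genes, against 48.6% of all genes, and the median gap between them was 0.44. Higher in Bcl11a-/- cells of both populations were 22 genes, against 31.4% of all genes. Another 7 were higher in Bcl11a-/- GMPs and lower in Bcl11a-/- MPPs, against 20.4% of all genes, and 2 were the reverse, against 24.0% of all genes. Across the 31 genes the GMP and MPP differences had a Spearman correlation of 0.05, against 0.15 over all genes; the points are genes of the same arrays and no independent replicates.

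Next, the levels in MPPs were set against those in GMPs. In WT cells the MPPs were higher than the GMPs for 26 of 31 genes, against 57.0% of all genes. Past 2-fold, 10 were higher, against 1.33% of all genes, and 1, Slc40a1, was more than 2-fold lower, against 2.8% of all genes. The 10 were Atp1b2, Cldn13, Car1, Car2, Ank1, Gfi1b, Rhd, Rhag, Aqp1 and Ermap, and the median difference, MPPs minus GMPs, was 0.63, against 0.06 over all genes. In Bcl11a-/- cells the MPPs were higher for 12 of 31 genes, against 59.4% of all genes, with 1, Car2, more than 2-fold higher, against 2.36% of all genes, and 2, Aqp1 and Slc40a1, more than 2-fold lower, against 5.82% of all genes. The median there was -0.18 as deposited, against 0.10 over all genes, and 0.01 once the 4 arrays were quantile normalized anew, where 2 genes were higher and 1 was lower by more than 2-fold. Within 0.5 of each other on the log2 scale in MPPs and GMPs were 20 genes in Bcl11a-/- cells and 12 in WT cells, whereas over all genes this share was 71.6% in Bcl11a-/- cells and 80.5% in WT cells. These comparisons use the same 4 arrays as those of genotype, so they are another view of the same values.

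**Figure D3:**
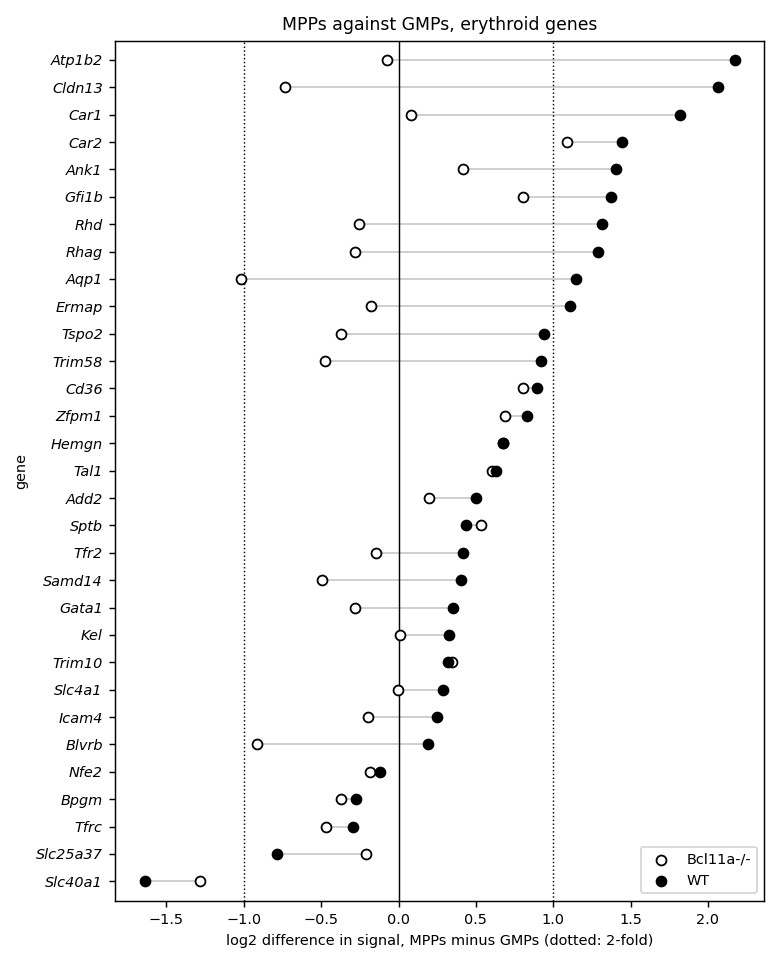
Log2 difference in signal, MPPs minus GMPs, of each erythroid gene (rows, in order of the WT difference) in Bcl11a-/- cells (open circles) and WT cells (filled circles), 1 array per condition; dotted lines mark 2-fold. In WT cells 10 genes lie beyond the right dotted line, up to 2.17 for Atp1b2, and in Bcl11a-/- cells 1 gene does, Car2 at 1.09.

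Array by array, WT GMPs gave the lowest signal for 26 of the 31 genes, against 31.7% of all genes. Bcl11a-/- GMPs gave it for 0 of the 31, against 25.5% of all genes. The highest signal came from Bcl11a-/- GMPs for 13 genes, against 18.7% of all genes, and from Bcl11a-/- MPPs for 12, against 40.5% of all genes.

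Other genes of the same pathways, from lists that do not overlap the set, had smaller median differences in GMPs. Of 13 measured further membrane and skeleton genes, 2 were more than 2-fold higher in Bcl11a-/- GMPs and 0 in Bcl11a-/- MPPs, with medians of 0.19 and 0.35. They were Tspan33, a tetraspanin, at 6.46 in Bcl11a-/- GMPs and 4.80 in WT GMPs, and Mfsd2b, a sphingosine-1-phosphate exporter, at 8.22 in Bcl11a-/- GMPs and 6.58 in WT GMPs. Tspan33 was just under the threshold in MPPs at 1.99-fold higher, with 7.11 in Bcl11a-/- MPPs and 6.11 in WT MPPs. Mfsd2b was 1.62-fold higher in Bcl11a-/- MPPs, with 7.51 there and 6.81 in WT MPPs. Cd47, the signal that protects red cells from engulfment, differed by 0.19 in GMPs, Gypc, a glycophorin, differed by -0.13, and Slc2a1, a glucose transporter, by -0.18. Of 14 further regulators, 2 were more than 2-fold higher in Bcl11a-/- GMPs and 0 in Bcl11a-/- MPPs, with medians of 0.02 and 0.18. Klf1, the CACCC-binding factor that drives many late red cell genes, had 8.13 in Bcl11a-/- GMPs and 6.44 in WT GMPs, and 8.12 in Bcl11a-/- MPPs and 7.82 in WT MPPs. Gata2, the GATA factor of early progenitors and mast cells, had 8.88 in Bcl11a-/- GMPs and 7.68 in WT GMPs, and 8.49 in Bcl11a-/- MPPs and 7.56 in WT MPPs. Klf1 was 3.23-fold higher in Bcl11a-/- GMPs and 1.23-fold higher in Bcl11a-/- MPPs, and Gata2 was 2.29-fold and 1.91-fold higher.

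Further iron genes stayed within 2-fold in GMPs, and ferritin stood apart in MPPs. Of 14, 0 were more than 2-fold apart in GMPs (median 0.09, range -0.36 to 0.60). In Bcl11a-/- MPPs 2, the ferritin subunits Ftl1 and Fth1, were more than 2-fold lower. Ftl1 had 7.49 in Bcl11a-/- MPPs and 9.70 in WT MPPs, and Fth1 had 10.02 in Bcl11a-/- MPPs and 11.74 in WT MPPs, while the GMP differences were 0.08 and 0.17. Ferritin stores iron in most cells and is abundant in the myeloid line.

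Markers of other cells that could share transcripts with the set were followed beside it. Of 8 measured megakaryocyte genes, 1 was more than 2-fold higher in Bcl11a-/- GMPs (Ppbp, 5.43 in Bcl11a-/- GMPs and 3.57 in WT GMPs) and 1 in Bcl11a-/- MPPs (Pf4, 6.05 in Bcl11a-/- MPPs and 4.85 in WT MPPs), with medians of 0.17 and 0.36. Signal was higher in Bcl11a-/- cells for 6 of the 8 in GMPs, Gp5 by 1.82-fold and Itga2b by 1.75-fold among them, against 51.9% of all genes. In MPPs it was higher for 8 of 8, against 55.6% of all genes. Pf4 differed by -0.35 in GMPs. The log2 of their summed signal was 9.64 in Bcl11a-/- GMPs and 9.44 in WT GMPs, and 9.50 in Bcl11a-/- MPPs and 8.98 in WT MPPs. Of 11 measured mast cell, basophil and eosinophil genes, 1, Gata2, was more than 2-fold higher and 2, Epx and Prg3, more than 2-fold lower in Bcl11a-/- GMPs, and the log2 summed signal was 12.34 in Bcl11a-/- GMPs and 12.83 in WT GMPs, and 11.53 in Bcl11a-/- MPPs and 11.76 in WT MPPs. Of 12 genes of the macrophages that nurse red cells, 0 were more than 2-fold apart in GMPs, 10 were under 6 on each array, and the median difference in GMPs was -0.07. Their log2 summed signal was 9.28 in Bcl11a-/- GMPs and 9.58 in WT GMPs, and 9.20 in Bcl11a-/- MPPs and 8.93 in WT MPPs. In MPPs C1qc of the macrophage list was more than 2-fold higher and Prg2 of the eosinophil genes more than 2-fold lower in Bcl11a-/- cells. The GMP list itself had a median difference of -0.12 in GMPs and -0.52 in MPPs. In MPPs 5 of its 12 genes, Elane, Prtn3, Ctsg, Ms4a3 and Nkg7, were more than 2-fold lower in Bcl11a-/- cells, against 2.02% of all genes, and 4 had a positive difference, Cebpe with 0.87 and Fcgr3 with 0.47 among them.

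Adult globin RNA is abundant in red cells and reticulocytes, and 4 probe sets were annotated jointly with several adult alpha or beta globin symbols. Their signals were 12.47 to 12.72 in Bcl11a-/- GMPs and 12.25 to 12.50 in WT GMPs, with differences of 0.11 to 0.22, and 11.93 to 12.40 in Bcl11a-/- MPPs and 12.41 to 13.20 in WT MPPs, with differences of -0.80 to -0.37. The globin probe sets differed in GMPs by less than the median member. Their signals were near the highest of any gene kept, 13.28 in Bcl11a-/- GMPs and 13.30 in WT GMPs, where differences can be compressed. The part that any of these other cells had in the values of the set was not tested. Without the 13 members that other blood cells are known to use, 8 of the remaining 18 genes were more than 2-fold higher in Bcl11a-/- GMPs, with a median of 0.96.

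**Figure D4:**
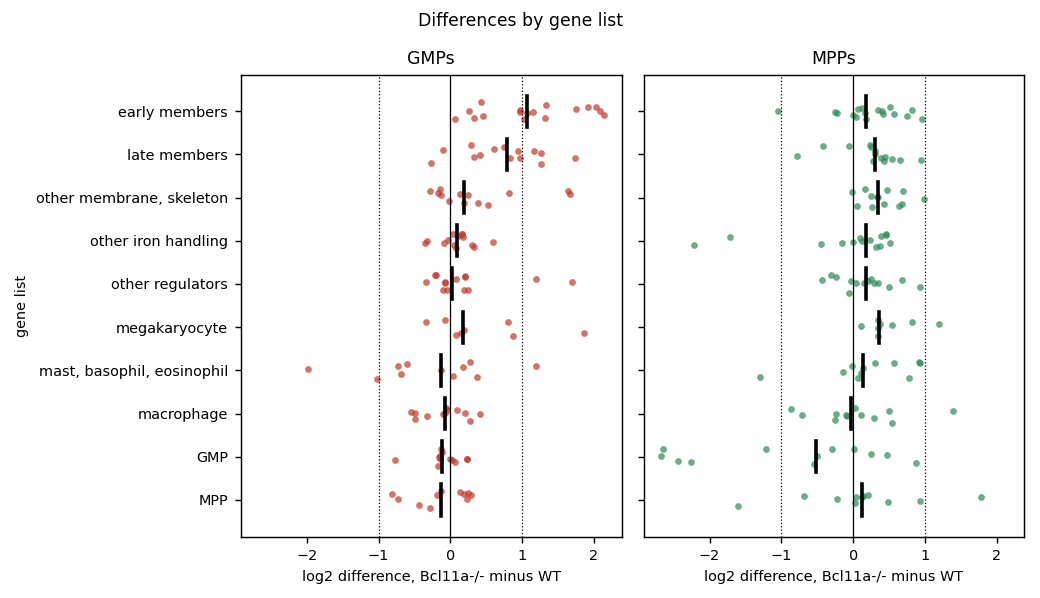
Log2 differences, Bcl11a-/- minus WT, in GMPs (left panel) and MPPs (right panel) of the early and late erythroid genes, of further erythroid and iron genes, and of markers of other cells (rows; each point is a gene, black bars are medians, dotted lines mark 2-fold), 1 array per condition. The medians of the early and late genes in GMPs are 1.07 and 0.79, and those of the other rows lie between -0.13 and 0.19.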

How the data were processed

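Donor-derived Bcl11a-/- and WT GMPs and MPPs were measured on 4 one-color arrays, 1 per condition. Per the labels and methods, the authors pooled cells by donor genotype, amplified and biotin-labeled the RNA, and applied RMA with quantile normalization in ArrayStar (no version stated). What the authors deposited is a log2 signal for every probe set, taken here unchanged. Quantile normalization removes shifts common to all genes. Of 30177 rows, 21789 had 1 gene symbol in the platform annotation, 1621 had several and 6767 had none; 19938 genes were kept, each as the mean of its probe sets of 1 symbol. The 31 measured symbols all matched RefSeq (GRCm38.p6), which also gave the upstream sequences.

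Differences, counts over 2-fold and list medians were computed in Python 3.11.15 (pandas 2.3.3, numpy 2.4.6, statsmodels 0.14.6 for lowess) after the code was tested on simulated data. Within a population or genotype 1 array per group left no residual degrees of freedom, so the only test was an additive fit of genotype and population over all 4 arrays (limma 3.58.1, Benjamini-Hochberg over all genes), added after the data were seen. The number of arrays limits the precision. The members and lists were chosen with earlier results of these data known. Values per array are given for members over 2-fold, the 2 largest differences of each role and the regulators; those of Kel, Slc4a1, Sptb, Samd14, Slc25a37, Slc40a1 and Trim58 and the marker genes Gp5, Itga2b, Pf4 in GMPs, Cebpe and Fcgr3 were added after their values were seen. From other lists, genes over 2-fold and up to 3 more by level were named. The alternatives covered floors, filters, centring, normalization, probe set choice, thresholds and list membership. Protein sequences were not used here.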

Additional observations from a re-analysis of the deposited data

Results flagged for a closer look

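For 6 members the effect ran in opposite directions in the 2 populations, higher in Bcl11a-/- GMPs and lower in Bcl11a-/- MPPs, and the gap between the GMP and the MPP difference was over 1 on the log2 scale. This gap was 2.80 for Cldn13 (1.75 in GMPs and -1.05 in MPPs), 2.25 for Atp1b2 (2.03 and -0.22), 2.17 for Aqp1 (1.92 and -0.25), 1.57 for Rhd (1.16 and -0.41), 1.39 for Trim58 (0.61 and -0.78) and 1.31 for Tspo2 (1.26 and -0.06). The differences between the populations were not tested, since each condition had 1 array. Over all genes such opposite directions with a gap of that size held for 531 of 19938 (2.66%), against 6 of 31 members (19.4%). Of the 6 genes, Trim58 was under 6 on every array, and the MPP difference of Tspo2 was close to 0.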

How the results depend on the processing

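Each group held 1 array, so leaving out a replicate was not an option, and precision rests on single pools. The additive fit pairs GMPs and MPPs of a genotype, which came from the same BM, so it holds no spread between pools of a genotype. Each member has 1 probe set, so the choice of probe sets leaves it as it is. Over the other alternatives, 91 values of lists stayed within 1.5 times the reported one and 31 moved, and 355 differences of single members kept their side of 2-fold, while 8 crossed it and 0 called values changed sign.

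In GMPs, 14 members were higher under every setting at 2-fold except 12 after the 4 arrays were quantile normalized anew, where Gata1 and Tfr2 both came to 0.98, and 8 without members of other blood cells. At 1.5-fold 21 were higher, and at 3-fold 6. In MPPs, the members higher (0 as reported) became 1 after lowess centring, 2 after quantile normalization of 4 or of 2 arrays and 5 at 1.5-fold. Those past 2-fold were Car2 (1.12 after lowess, 1.19 after either normalization) and Hemgn (1.05 and 1.01). The members lower (1) became 0 with 2 arrays normalized anew, where Cldn13 was -0.99, 2 at 1.5-fold and 0 at 3-fold. The early median in MPPs (0.18) became 0.34 with a signal of at least 6, 0.29 with 4 and 0.30 with 2 arrays normalized anew, and 0.37 for the core genes.

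For MPPs minus GMPs in WT cells, the members higher (10) became 16 at 1.5-fold and 3 at 3-fold, and those lower (1) became 2 at 1.5-fold. In Bcl11a-/- cells the median (-0.18) became -0.28 centred on the median of all genes, -0.072 after lowess, 0.0109 with 4 and 0.0095 with 2 arrays normalized anew. The members higher (1) became 0 centred on the median, 2 after lowess, 2 with 4 and 2 with 2 arrays normalized anew, 6 at 1.5-fold and 0 at 3-fold. Those lower (2) became 3 centred on the median, 1 after lowess or either normalization, 4 at 1.5-fold and 0 at 3-fold. The cause of these moves was not tested.

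Over all genes in GMPs, 56 were lower as reported and 31 with signals under 5 set to 5, with 402 higher and 298 lower at 1.5-fold and 18 and 11 at 3-fold. In MPPs 181 were higher as reported and 120 with that floor, with 1033 higher and 1368 lower at 1.5-fold and 25 and 96 at 3-fold. At 1.5-fold and 3-fold, MPPs minus GMPs gave 1330 and 50 higher and 1590 and 130 lower in WT cells, and 2169 and 81 higher and 2357 and 373 lower in Bcl11a-/- cells.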
